A study of Mus musculus with 22 samples.

Results

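The genes described here are 39 cadherins, desmosomal cadherins and catenins in the first mandibular molar of the mouse. They were taken by symbol from the deposited normalised table: Cdh followed by a number, Dsg followed by a number, Dsc1 to Dsc3, and Ctnna, Ctnnb or Ctnnd followed by a number or the letter l. The 39 genes are among 55421 mouse gene rows, and 33 of them passed the filter on low counts, among 21510 genes tested. Cdh9 is not listed in the normalised table, which leaves out genes with 5 or fewer counts in every library, and is therefore not a member; its raw counts summed to 11 over all libraries.

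Bulk RNA sequencing was done on molars at postnatal days 11 (P11) and 5 (P5). Het mice carried 1 G357W allele of Tgfbr2, the type II receptor for TGF-beta, beside 1 unmutated allele, a model of Loeys-Dietz syndrome, which affects connective tissue. WT mice were littermates with both alleles unmutated. The allele changes an amino acid, so gene counts cannot check the genotype labels. The groups were P11 Het and P11 WT with 5 libraries each, and P5 Het and P5 WT with 6 libraries each. No agent was given and no strain is named in the labels. For these 22 libraries the design text gives only 5 Het mice and 8 WT mice. Some libraries may therefore come from the same animal, in which case the p-values below are too small.

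Cadherins are calcium-dependent adhesion proteins that bind the same or a related cadherin on the neighbouring cell. In adherens junctions the tails of classical cadherins hold beta-catenin and p120-catenin, and alpha-catenin links beta-catenin to actin. In desmosomes the desmogleins and desmocollins bind plakoglobin and plakophilins, and desmoplakin ties these to keratin filaments. A developing molar contains both an epithelial enamel organ, rich in both kinds of junction, and a mesenchymal papilla and follicle, and over these days its ameloblasts pass from secreting to maturing enamel.

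The libraries held 32903949 to 45343744 counts of mouse genes, with group means of 42636526 in P11 Het, 37919978 in P11 WT, 36947154 in P5 Het and 38280014 in P5 WT. Defining markers of the molar were present in all libraries: Amelx, the main enamel matrix protein, ranged from 593 to 4450 CPM (a count scaled to the depth of its library, with TMM factors) in P11 libraries and from 30200 to 47000 CPM in P5 libraries. P5 Het 6 is titled P5, but its tissue and treatment fields name P11; on the first principal component, with 77.4% of the variance, it lay at -47.9, among the other P5 libraries (-48.0 to -40.8) and away from the P11 libraries (44.1 to 75.7). Markers of oral keratinocytes, such as Krt4, were high in P11 WT 4, P11 WT 5 and P11 Het 2 (81.0 to 305 CPM, against 0.541 to 17.2 CPM in the other 7 P11 libraries). The library names carry a number before a hyphen (the prefix), which is 1 or 2 at P11 and 3, 4 or 5 at P5. What it stands for is not stated, and since no prefix spans both ages, prefix and age cannot be told apart.

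All 6 desmosomal cadherins with enough counts rose at P11, in both genotypes. Dsg3 and Dsc2, minor members of their families at P5, moved farthest, and Dsg2, Dsg1a, Dsg1b and Dsc3 rose less. Of the classical cadherins Cdh2 and Cdh3 fell, Cdh11 rose, and the alpha-catenin Ctnna2 fell more than any other member in both genotypes. In all, 25 of the 33 tested members were called at P11 against P5 in Het molars (12 higher and 13 lower), at an adjusted p under 0.05 in the edgeR quasi-likelihood test over all genes. The background was 47.8% of all genes tested (24.4% higher and 23.4% lower). In WT molars 25 of 33 were called, 13 higher and 12 lower, against a background of 49.4% (24.8% higher and 24.7% lower). In both genotypes 11 members rose and 11 fell, while Cdh23 was called in opposite directions. The share of all genes called alike in both genotypes was not computed, so these shared counts are descriptions only. Without overlap between the ages, 9 members lay above and 5 below in Het (14 of 33, against a background of 30.3%, with 15.9% above and 14.4% below), and 11 above and 10 below in WT (21 of 33, against 32%, with 16.6% above and 15.5% below).

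**Figure D1:**
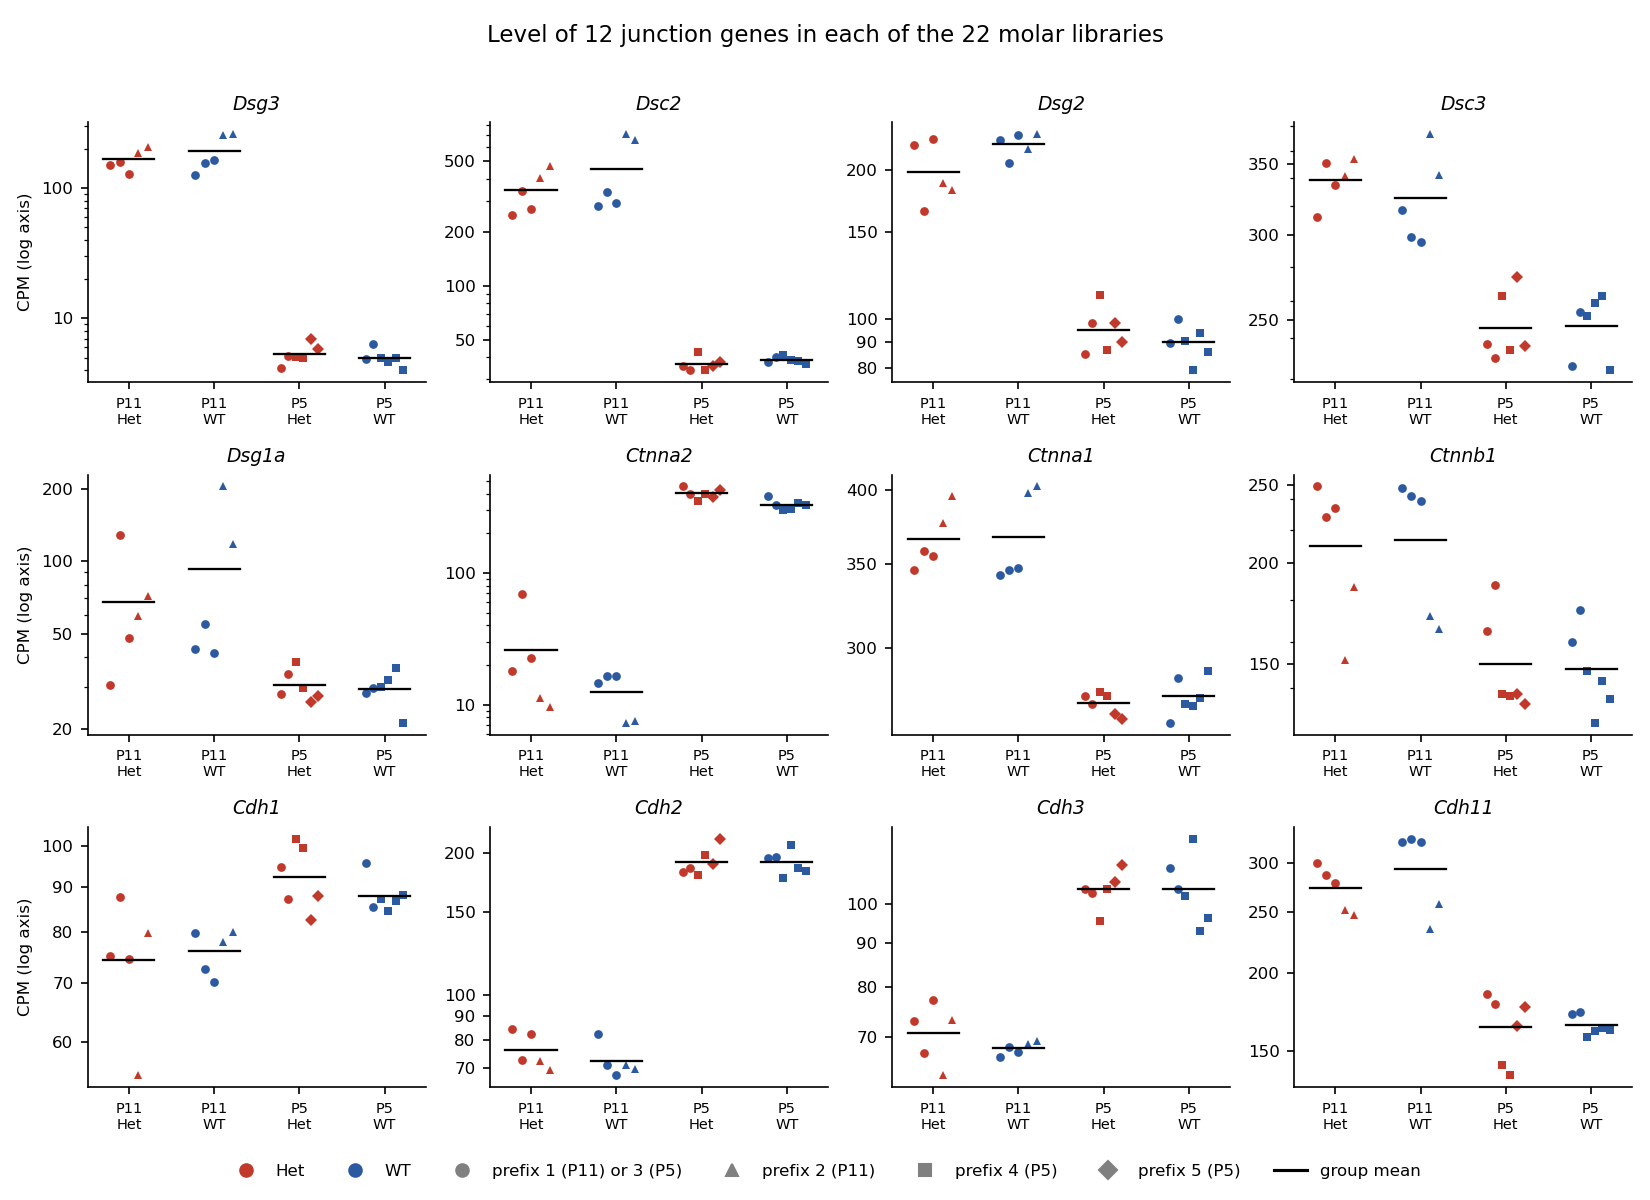
Expression of 12 cadherin and catenin genes in each library, as TMM-scaled CPM on log axes, with Het in red, WT in blue, symbols for the library-name prefix and a line at the group mean (n = 5 at P11 and 6 at P5). All 10 P11 libraries lie above all 12 P5 libraries for Dsg3, Dsc2, Dsg2, Dsc3, Ctnna1 and Cdh11 and below them for Ctnna2, Cdh2 and Cdh3.

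Dsg3, the desmoglein of basal stratified epithelium, had 151, 158, 128, 187 and 209 CPM in the P11 Het libraries, and its lowest, median and highest values were 4.13, 5.07 and 6.97 CPM in P5 Het. The P11 WT libraries had 127, 155, 164, 257 and 262 CPM, against 4.00, 4.91 and 6.35 CPM in P5 WT. The ages did not come near each other, and among P11 libraries the 4 of prefix 2 (187 to 262 CPM) lay above the 6 of prefix 1 (127 to 164 CPM). The log2 fold change was 4.96 ± 0.19 (SE) in Het, or 31.1-fold (edgeR adjusted p = 9.34e-16), and 5.28 ± 0.19 in WT, or 38.8-fold (adjusted p = 3.91e-16). It was 4.77 in Het and 4.90 in WT with the P11 libraries of prefix 1 alone, and 5.22 in Het and 5.72 in WT with those of prefix 2 alone.

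Dsc2, the desmocollin found in most desmosome-bearing tissues, had 250, 341, 270, 406 and 471 CPM in P11 Het and 33.8, 35.5 and 42.8 CPM (lowest, median and highest) in P5 Het. It had 282, 335, 291, 714 and 657 CPM in P11 WT and 36.8, 38.4 and 40.9 CPM in P5 WT. Every P11 library lay above every P5 library, and the 4 prefix 2 libraries were again the highest. Dsc2 rose by 3.25 ± 0.21 in Het (adjusted p = 8.91e-12) and by 3.56 ± 0.22 in WT (adjusted p = 1.88e-12). Without 5 libraries in which oral keratinocyte or muscle markers were raised (P11 Het 2, P11 WT 4, P11 WT 5, P5 Het 4 and P5 Het 5), the values were 3.23 in Het and 2.97 in WT.

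Dsg2, the desmoglein of simple epithelia and heart, averaged 198 ± 27.7 CPM in P11 Het (SD, n = 5) and 95.2 ± 9.80 CPM in P5 Het (n = 6), and 225 ± 12.6 CPM in P11 WT against 90.0 ± 7.22 CPM in P5 WT. It rose by 1.06 ± 0.08 in Het and 1.32 ± 0.09 in WT, with no overlap between the ages in either genotype. Dsc3, a desmocollin of stratified epithelium and the most abundant desmosomal cadherin per length at P5, averaged 338 ± 16.6 CPM in P11 Het and 246 ± 18.1 CPM in P5 Het, and 325 ± 32.7 CPM in P11 WT and 246 ± 17 CPM in P5 WT. Its rise was small, 0.46 ± 0.07 in Het and 0.40 ± 0.07 in WT, and was past the test in both. With keratinocyte and muscle scores as covariates the WT value was 0.21 (adjusted p = 0.104). The keratinocyte score was higher in every P11 library than in every P5 library, so that fit cannot fully tell the score from age.

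Dsg1a and Dsg1b, close copies of the desmoglein of the upper layers of stratified epithelium, also rose. Dsg1a had 30.5, 128, 48.1, 59.2 and 71.6 CPM in P11 Het and 26.0, 28.9 and 38.2 CPM (lowest, median and highest) in P5 Het. It had 43.2, 55, 41.7, 205 and 118 CPM in P11 WT and 21.3, 29.8 and 36.0 CPM in P5 WT. The ages overlapped in Het but not in WT, and the highest P11 values belonged to the 3 libraries with the most oral keratinocyte RNA. The log2 fold change was 1.14 ± 0.34 in Het (adjusted p = 0.00802) and 1.65 ± 0.34 in WT (adjusted p = 0.000322). Without P11 Het 2 the Het value was 0.78 (adjusted p = 0.0577), and with P11 libraries of prefix 1 alone the WT value was 0.66 (adjusted p = 0.0581). With oral keratinocyte and muscle scores as covariates the values were -0.07 in Het (adjusted p = 0.852) and 0.02 in WT (adjusted p = 0.957). Here too the fit cannot fully tell the keratinocyte score from age. Dsg1b had 11.5, 23.9, 15.9, 16 and 20.8 CPM in P11 Het and 6.23, 6.69 and 8.78 CPM (lowest, median and highest) in P5 Het, and 15.5, 19.9, 14.1, 43.3 and 32.2 CPM in P11 WT and 6.55, 7.52 and 10.7 CPM in P5 WT. It stood above P5 in every P11 library and rose by 1.31 ± 0.23 in Het and 1.65 ± 0.23 in WT, and by 1.1 in Het and 1.05 in WT without the 5 libraries with raised keratinocyte or muscle markers. Over all alternative fits the lowest values for Dsg1b were 0.60 in Het and 0.70 in WT, and each fit called it. Because Dsg1a, Dsg1b and Dsg1c are near-identical, how reads were divided among them is uncertain.

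Dsc1, Dsg1c and Dsg4 had too few counts to be tested. Dsc1, a desmocollin of keratinising epithelium, had 113 counts in P11 Het 2, 159 in P11 WT 4 and 72 in P11 WT 5, and at most 16 in any other library. In CPM these 3 libraries had 2.47, 3.82 and 1.83, against 0.0232 to 0.385 in the other 7 P11 libraries and 0 to 0.108 at P5. With the P11 libraries of prefix 2 alone Dsc1 passed the filter and was called higher at P11 in WT (5.87 ± 0.57, edgeR adjusted p = 1.4e-07). The P11 WT libraries in that fit are WT 4 and WT 5. Dsg4, a desmoglein of the hair follicle, had 40 counts in all and Dsg1c had 115.

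Desmosomal cadherins thus changed in make-up as well as in sum. Expressed per kilobase of exon (CPM per kb), the 6 desmogleins summed to 64.2 ± 6.36 in P11 Het and 19.5 ± 1.94 in P5 Het, and to 77.5 ± 23.8 in P11 WT and 18.8 ± 1.47 in P5 WT. Dsg3 made up 37.1 ± 5.44% of that sum in P11 Het and 3.95 ± 0.814% in P5 Het, and 35.6 ± 3.13% in P11 WT and 3.77 ± 0.397% in P5 WT. Dsc2 made up 50.5 ± 5.69% of the desmocollin sum in P11 Het and 13.2 ± 0.894% in P5 Het, and 56.7 ± 8.80% in P11 WT and 13.9 ± 0.653% in P5 WT, where Dsc3 held nearly all the rest. These shares are descriptions of the levels above, with no test of their own. In bulk samples more cells of a type and more RNA per cell cannot be told apart.

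**Figure D2:**
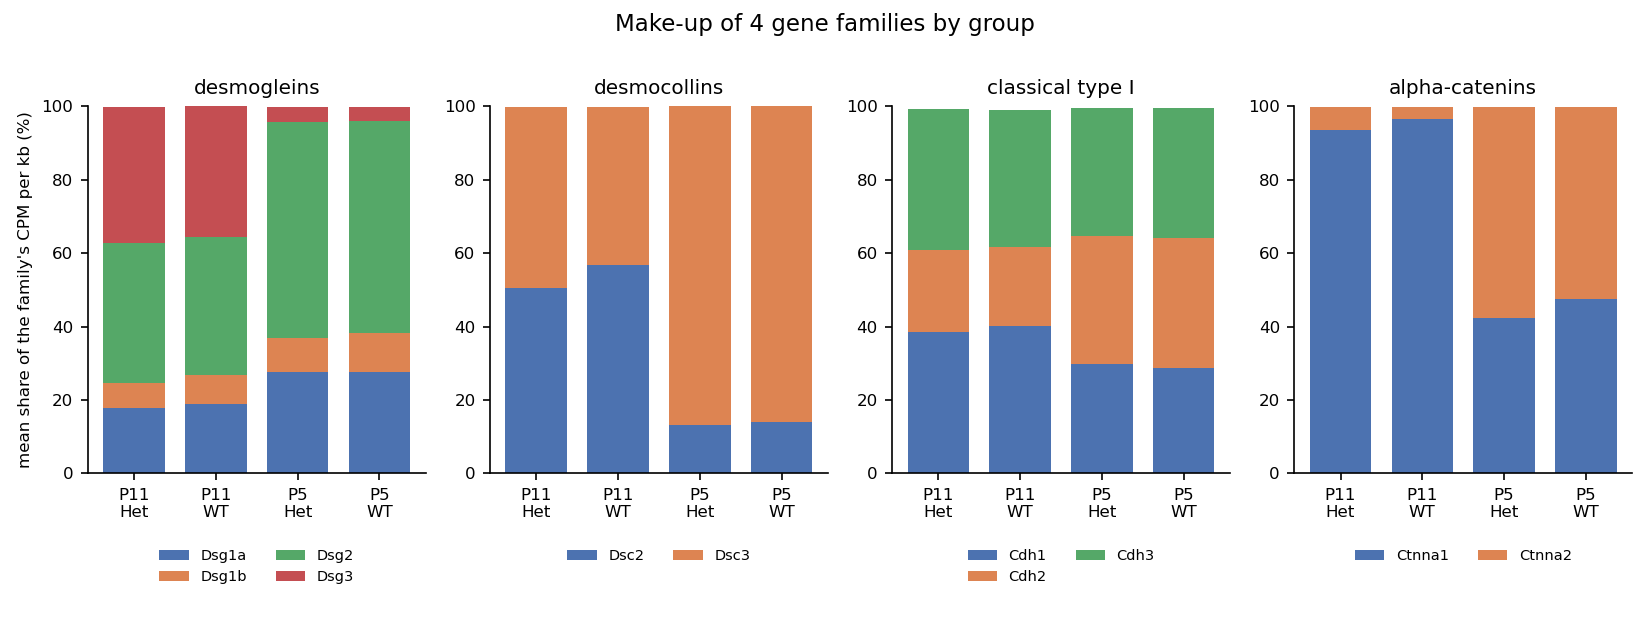
Mean share of each gene in the summed CPM per kb of its family, in percent, for desmogleins, desmocollins, classical type I cadherins and alpha-catenins, with 1 bar per group (n = 5 at P11 and 6 at P5). Genes below 1% in every group are not drawn, so bars can end just under 100%. Dsg3, Dsc2 and Ctnna1 hold larger shares at P11, and Dsg2, Dsc3 and Ctnna2 larger shares at P5.

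The classical type I cadherins comprise Cdh1, Cdh2, Cdh3, Cdh4 and Cdh15, and Cdh1, Cdh2 and Cdh3 made up nearly all of their RNA. None of the 5 was called higher in either genotype and 3 fell in both. Cdh2 (N-cadherin), the cadherin of neural and mesenchymal cells, had 84.6, 72.8, 82.4, 72.4 and 69.2 CPM in P11 Het, against 179, 188 and 214 CPM (lowest, median and highest) in P5 Het. It had 82.5, 71.0, 67.5, 71.1 and 69.7 CPM in P11 WT, against 177, 191 and 208 CPM in P5 WT. The ages stood well apart, and Cdh2 fell by 1.33 ± 0.07 on the log2 scale in Het (adjusted p = 1.56e-13) and by 1.40 ± 0.07 in WT (adjusted p = 4.94e-14).

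Cdh3 (P-cadherin), found in basal and budding epithelium, averaged 70.7 ± 5.63 CPM in P11 Het and 104 ± 4.97 CPM in P5 Het, and 67.9 ± 1.18 CPM in P11 WT and 104 ± 9.51 CPM in P5 WT. It fell by 0.55 ± 0.06 in Het and by 0.62 ± 0.06 in WT, with no overlap. Cdh1 (E-cadherin), the general epithelial cadherin, averaged 74.5 ± 12 CPM in P11 Het and 92.4 ± 7.73 CPM in P5 Het, and 76.1 ± 4.51 CPM in P11 WT and 87.9 ± 4.01 CPM in P5 WT. Its fall of 0.31 ± 0.08 in Het had an adjusted p of 0.00375. The fall of 0.21 ± 0.08 in WT had an adjusted p of 0.0446, and leaving out single libraries ended that call in 14 of 22 cases, with values from -0.22 to -0.16. Cdh2 thus held 22.5 ± 2.19% of the type I sum per kb in P11 Het and 34.9 ± 1.45% in P5 Het, and 21.6 ± 1.31% in P11 WT and 35.4 ± 0.997% in P5 WT. Cdh4 and Cdh15, the retinal and muscle cadherins, stayed under 1.5 CPM in every library and were called in neither genotype. Cdh15 had a log2 fold change of 0.58 ± 0.53 in Het (adjusted p = 0.389) and 1.27 ± 0.54 in WT (adjusted p = 0.0548). The WT value was called by DESeq2 (1.29, adjusted p = 0.0351), by limma-voom (1.98, adjusted p = 0.0145) and in 4 of 22 single-library omissions (adjusted p down to 0.00522, without P5 WT 5).

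Among type II cadherins, 10 of 12 were tested, and Cdh11 was by far the most abundant. Cdh11, the cadherin of osteoblasts and loose mesenchyme, had 300, 287, 279, 252 and 248 CPM in P11 Het, against 137, 170 and 185 CPM (lowest, median and highest) in P5 Het. It had 324, 328, 324, 235 and 258 CPM in P11 WT, against 158, 162 and 173 CPM in P5 WT. Each P11 library was above each P5 library, and the 4 prefix 2 libraries were the lowest of P11. It rose by 0.74 ± 0.09 in Het (adjusted p = 3.84e-07) and 0.84 ± 0.09 in WT (adjusted p = 4.94e-08).

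Cdh5 (VE-cadherin), which marks endothelium, had 30.9 ± 4.39 CPM in P11 Het and 35.9 ± 2.18 CPM in P5 Het, a fall of 0.21 ± 0.08 (adjusted p = 0.0262). In WT it had 32.8 ± 0.879 CPM at P11 and 34.7 ± 2.88 CPM at P5 and was not called (-0.08 ± 0.08). Leaving out P5 Het 1, P5 Het 5, P11 Het 2 or P11 Het 5 singly ended the Het call, with adjusted p up to 0.101, as did leaving out the 5 libraries together (-0.17, adjusted p = 0.165). Of 10 other endothelial markers, 6 rose and none fell in each genotype, with a median log2 fold change of 0.34 in Het and 0.25 in WT. Over all genes 24.4% rose and 23.4% fell in Het, and 24.8% rose and 24.7% fell in WT.

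Cdh6 (K-cadherin), known from the kidney, and Cdh20, a neural cadherin, fell in both genotypes. Cdh6 had 8.07, 9.05, 6.35, 6.60 and 5.12 CPM in P11 Het and 13.9 to 23.7 CPM in P5 Het, and 6.96, 5.34, 7.72, 7.37 and 6.19 CPM in P11 WT and 11.6 to 24.6 CPM in P5 WT. It fell by 1.42 ± 0.18 in Het and by 1.37 ± 0.19 in WT, without overlap. Cdh20 was scarce, with 0.0232 to 0.240 CPM in P11 Het and 0.417 to 1.57 CPM in P5 Het, and 0.0240 to 0.484 CPM in P11 WT and 0.863 to 1.82 CPM in P5 WT. It fell by 3.32 ± 0.50 in Het and by 2.56 ± 0.46 in WT, also without overlap. Cdh12, another neural cadherin, had 0.511, 0.0873, 0.0961, 0.0946 and 0 CPM in P11 Het and 0.249 to 0.724 CPM in P5 Het, and 0.0515 to 0.197 CPM in P11 WT and 0.278 to 0.807 CPM in P5 WT. It fell by 1.46 ± 0.55 in Het and by 2.18 ± 0.59 in WT. Cdh24 also fell in both genotypes, Cdh19 fell (-0.65 ± 0.20) and Cdh22 rose (1.36 ± 0.37) in WT alone as called, and Cdh10 and Cdh18 were called in neither. Single-library omissions ended the Het call in 5 of 22 cases for Cdh12 and in 6 of 22 for Cdh24, and the genotype difference in these age effects was not called for any member.

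Of the catenins, Ctnna1, Ctnnb1 and Ctnnd1 rose while Ctnna2 fell. Ctnna2 (alphaN-catenin), the alpha-catenin of neurons, had 18, 69.1, 22.5, 11.2 and 9.60 CPM in P11 Het, against 352, 397 and 454 CPM (lowest, median and highest) in P5 Het. It had 14.7, 16.4, 16.6, 7.29 and 7.46 CPM in P11 WT, against 300, 329 and 381 CPM in P5 WT. P11 Het 2 stood above the other P11 libraries, and the 4 prefix 2 libraries (7.29 to 11.2 CPM) lay below the 6 of prefix 1 (14.7 to 69.1 CPM). Ctnna2 fell by 3.94 ± 0.39 in Het, or 15.3-fold (adjusted p = 1.02e-08), and by 4.72 ± 0.41 in WT, or 26.4-fold (adjusted p = 8.82e-10). Within prefix 1 the values were -3.45 in Het and -4.37 in WT, and within prefix 2 they were -5.25 in Het and -5.47 in WT. Enam, the secretory-stage enamel gene enamelin, had 2370, 2710, 1860, 141 and 70.3 CPM in the same P11 Het libraries, 356, 200, 388, 33.6 and 39.7 CPM in the P11 WT libraries, and 24000 to 31200 CPM at P5. Whether Ctnna2 RNA comes from the same cells as Enam was not tested.

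Ctnna1, the general alpha-catenin, averaged 366 ± 19.9 CPM in P11 Het and 271 ± 5.19 CPM in P5 Het, and 368 ± 30.4 CPM in P11 WT and 275 ± 9.59 CPM in P5 WT. It rose by 0.43 ± 0.06 in Het and 0.42 ± 0.06 in WT. After the fall of Ctnna2 it was the main alpha-catenin at P11. Per kb, Ctnna2 made up 6.01 ± 5.27% of alpha-catenin RNA in P11 Het and 57.6 ± 2.26% in P5 Het, and 3.11 ± 1.33% in P11 WT and 52.5 ± 2.53% in P5 WT. The summed alpha-catenin level was 60.9 ± 3.61 CPM per kb in P11 Het and 100.0 ± 5.04 in P5 Het, and 59.1 ± 4.06 in P11 WT and 90.4 ± 3.99 in P5 WT. Ctnna3, the alpha-catenin of heart, stayed under 2 CPM and was not called.

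Ctnnb1 (beta-catenin), both the cadherin-bound catenin and the Wnt effector, had 249, 228, 234, 152 and 187 CPM in P11 Het and 134, 138 and 188 CPM (lowest, median and highest) in P5 Het. It had 248, 242, 239, 172 and 166 CPM in P11 WT and 127, 145 and 175 CPM in P5 WT. The P11 libraries of prefix 1 lay above all P5 libraries and those of prefix 2 overlapped them. The rise was 0.49 ± 0.13 in Het (adjusted p = 0.00366) and 0.53 ± 0.13 in WT (adjusted p = 0.00165), but with the P11 libraries of prefix 2 alone it was 0.19 in Het (adjusted p = 0.302) and 0.21 in WT (adjusted p = 0.225). In the annotation, 14.6% of the exon bases of Ctnnb1 are shared with Ulk4 on the other strand, and the libraries carry no strand.

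Ctnnd1 (p120-catenin), which keeps classical cadherins at the cell surface, averaged 33.8 ± 2.84 CPM in P11 Het and 23.5 ± 1.07 CPM in P5 Het, and 34.5 ± 1.93 CPM in P11 WT and 23.6 ± 2.27 CPM in P5 WT. It rose by 0.53 ± 0.07 in Het and 0.55 ± 0.07 in WT, without overlap. Of its exon bases, 61.2% are shared with the overlapping gene Gm28635. Ctnnd2, the neural delta-catenin, fell by 0.28 ± 0.11 in Het and by 0.47 ± 0.11 in WT, and the Het call was lost in 9 of 22 single-library omissions. Ctnnal1 (alpha-catulin), an alpha-catenin-like protein, rose in Het (0.26 ± 0.09) and was not called in WT (-0.13 ± 0.09). Ctnnbl1, which despite its name is a spliceosome-associated protein, fell by 0.29 ± 0.08 in Het and by 0.30 ± 0.08 in WT.

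**Figure D3:**
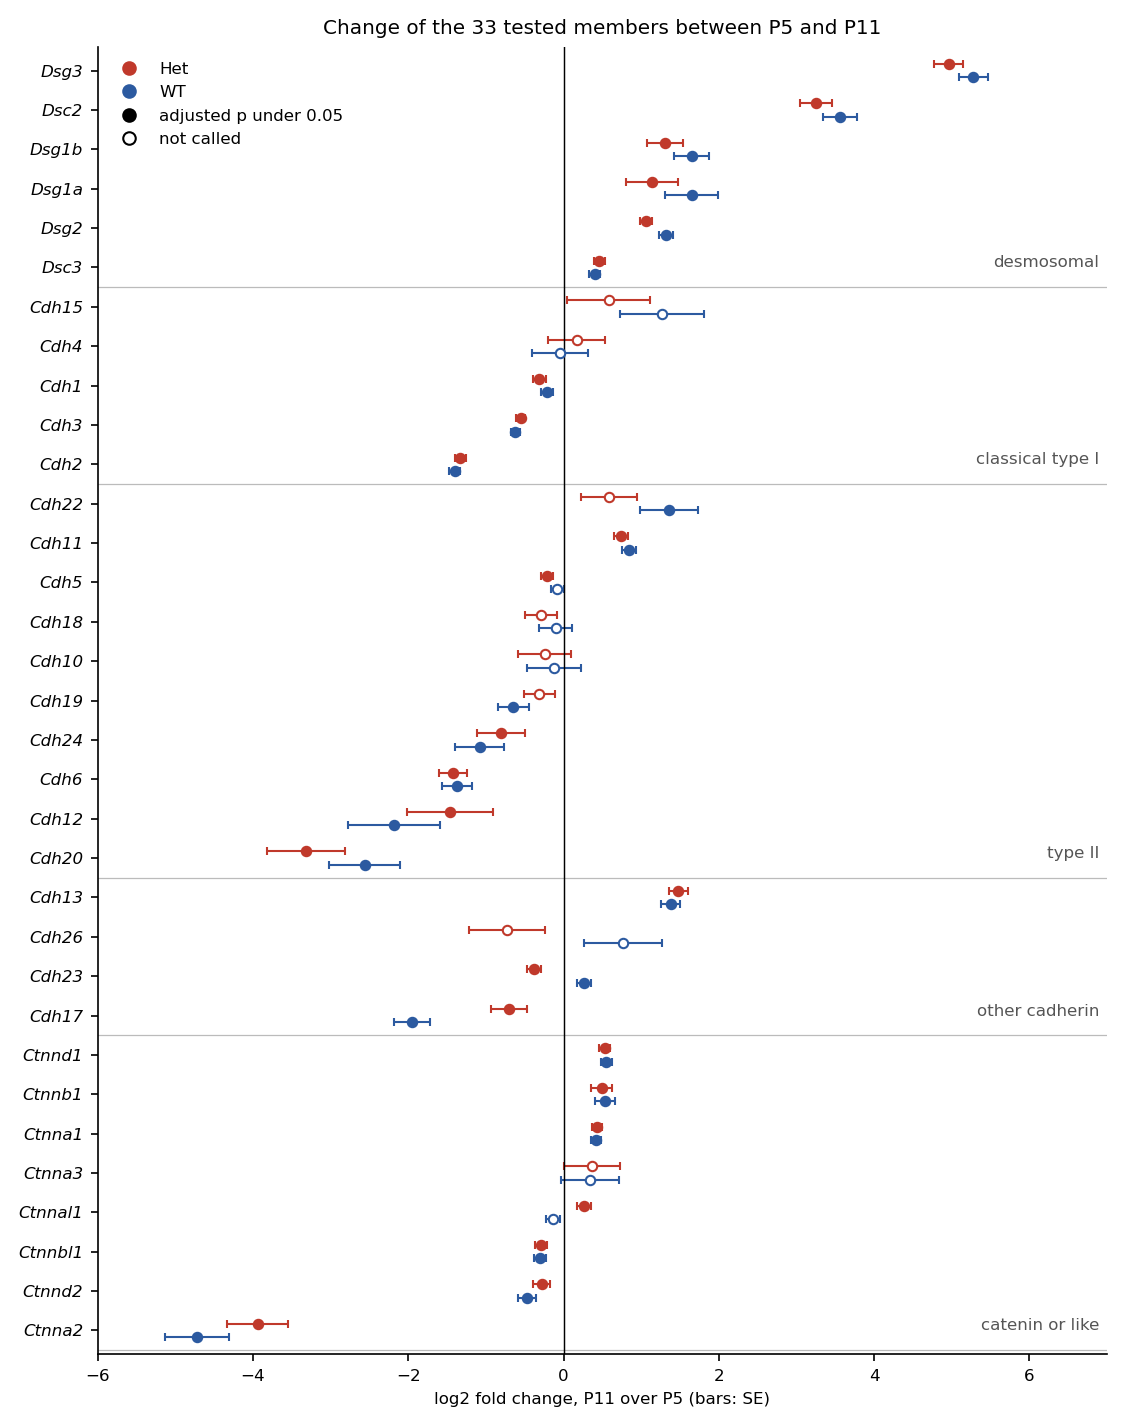
Log2 fold change of the 33 tested members at P11 over P5, with SE bars, for Het (red) and WT (blue), grouped by role. Filled points passed an adjusted p of 0.05; all 6 desmosomal cadherins are filled to the right of 0, and Ctnna2 is farthest to the left at -3.94 in Het and -4.72 in WT.

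Among the remaining cadherins, Cdh13 (T-cadherin), which is anchored by a lipid and has no tail for catenins, averaged 47.3 ± 9.85 CPM in P11 Het and 16.9 ± 1.81 CPM in P5 Het, and 52.3 ± 11.0 CPM in P11 WT and 20.1 ± 0.998 CPM in P5 WT. It rose by 1.48 ± 0.12 in Het and by 1.38 ± 0.12 in WT, with no overlap. Cdh17, the liver-intestine cadherin, was scarce and fell by 0.70 ± 0.23 in Het and fell by 1.95 ± 0.23 in WT. It had 0.348 to 0.807 CPM in P11 Het and 0.655 to 1.1 CPM in P5 Het, with overlap. In WT it had 0.309 to 0.534 CPM at P11 and 1.21 to 2.06 CPM at P5, without overlap. The genotype by age interaction of 1.25 ± 0.32 was not called (adjusted p = 0.263). With the P11 libraries of prefix 1 alone the Cdh17 value in Het was -0.52 (adjusted p = 0.111). Cdh26 was called in neither genotype, and Cdh16, a kidney cadherin, had 32 counts in all.

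The upstream sequences of 3 members that fell at P11 in both genotypes are shown, chosen as those with an entry and the smallest adjusted p in both genotypes. RefSeq entries were found for 19 of the 39 genes, and each window runs from 250 bases before to 50 after the annotated start on GRCm38.p6. Capitals mark the only matches to 4 motifs searched on both strands: CAGGTG (the E-box read by Snail and Zeb), CAGAC (the Smad box), TGTGGT (a Runx site) and TATAAA (the TATA box). The windows are chr6:77979618-77979917 (minus strand) for Ctnna2, chr1:104768270-104768569 (plus strand) for Cdh20 and chr15:13173626-13173925 (minus strand) for Cdh6.
Ctnna2: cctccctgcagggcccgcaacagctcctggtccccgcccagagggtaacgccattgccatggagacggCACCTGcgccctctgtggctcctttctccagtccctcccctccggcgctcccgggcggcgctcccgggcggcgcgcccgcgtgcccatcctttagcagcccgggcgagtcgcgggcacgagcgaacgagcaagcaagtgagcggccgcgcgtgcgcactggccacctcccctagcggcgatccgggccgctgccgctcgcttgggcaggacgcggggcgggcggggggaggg
Cdh20: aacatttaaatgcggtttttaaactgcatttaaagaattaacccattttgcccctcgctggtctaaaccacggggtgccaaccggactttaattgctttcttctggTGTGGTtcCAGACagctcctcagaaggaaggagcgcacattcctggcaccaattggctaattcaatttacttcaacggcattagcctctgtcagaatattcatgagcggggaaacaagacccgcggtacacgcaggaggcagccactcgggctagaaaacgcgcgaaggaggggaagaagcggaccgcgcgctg
Cdh6: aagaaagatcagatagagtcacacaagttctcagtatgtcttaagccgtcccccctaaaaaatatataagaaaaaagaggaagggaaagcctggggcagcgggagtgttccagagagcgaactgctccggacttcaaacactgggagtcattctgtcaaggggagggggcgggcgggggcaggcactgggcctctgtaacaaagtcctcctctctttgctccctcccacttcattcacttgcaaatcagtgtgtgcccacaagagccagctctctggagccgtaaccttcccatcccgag
The Ctnna2 window held 38 CG dinucleotides, at the 95th percentile of 32851 RefSeq promoters of the same length, with 18 in the Cdh20 window and 8 in the Cdh6 window against a median of 7. It held the E-box as CACCTG, starting 182 bases before the start. The Cdh20 window held a Runx site at -144 and a Smad box at -136, and Cdh6 held none of the 4. Of all promoters, 20.2% hold the E-box, 49.6% the Smad box, 16.8% the Runx site and 13.6% the TATA box, so such matches are frequent. Of the 11 members that fell in both genotypes 7 have an entry, and of these 4 held a Smad box (Cdh12, Cdh20, Cdh24 and Ctnnd2), 1 the E-box and 1 the Runx site.

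All 9 desmosomal cadherins lie in 644 kb of chromosome 18 (19960930 to 20604521, GRCm38). Within it the scarce Dsc1, Dsg1c and Dsg4, not tested over all libraries, lie between members called higher at P11. Cdh3 and Cdh1 are neighbours on chromosome 8, 46.1 kb apart, and both fell, while Cdh11 and Cdh13 on the same chromosome rose. Per kb of exon, the order of levels in P11 Het was Dsc2 (65.9), Dsc3 (62.6), Ctnna1 (57.0), Ctnnb1 (40.4), Cdh11 (30.7), Dsg2 (23.9) and Dsg3 (23.9 CPM per kb), of which Dsc2 and Dsc3 did not differ beyond their SDs of 17.6 and 3.08. In P5 Het it was Ctnna2 (57.7), Dsc3 (45.5), Ctnna1 (42.2), Ctnnb1 (28.9), Cdh2 (23.7) and Cdh3 (23.7 CPM per kb), with Dsc2 at 6.93 and Dsg3 at 0.764.

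Genotype moved few of these genes. At P5, Cdh23 was the only member called between Het and WT molars, 1 of 33 tested against a background of 0.26% of all genes (0.0651% higher and 0.195% lower), and it was higher in Het. At an unadjusted p under 0.05 in edgeR, 4 of 33 members (12.1%) passed at P5, against 6.22% of all genes. At P11 none of the 33 was called by edgeR, by DESeq2 or by limma-voom, with a background of 0.0279% (0.0232% higher and 0.00465% lower). At an unadjusted p under 0.05 there were 3 of 33 members (9.09%), against 9.85% of all genes. No member was free of overlap between the genotypes at P11, against a background of 1.36% (0.614% above and 0.748% below). Averaged over both ages none was called by any of these tools, with a background of 0.172% (0.0651% higher and 0.107% lower). At an unadjusted p under 0.05 there were again 3 members, against 6.85% of all genes. For the genotype by age interaction none was called by edgeR or limma-voom and 1 by DESeq2, with a background of 0.0139%. At an unadjusted p under 0.05 in edgeR there were 5 of 33 members (15.2%), against 10.3% of all genes.

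Cdh23, a very long cadherin known as part of the tip links of inner-ear hair cells, had 38.9, 44.0 and 49.7 CPM (lowest, median and highest) in P5 Het and 28.6, 31.7 and 33.7 CPM in P5 WT. Every P5 Het library was above every P5 WT library; of all genes tested, 0.851% were free of overlap between the genotypes at P5 (0.344% above and 0.507% below). The log2 fold change was 0.49 ± 0.08, or 1.41-fold (adjusted p = 0.00634), and it ranged from 0.46 to 0.53 when single libraries were left out, all called. With the prefix as a block it was 0.47 (adjusted p = 0.0230), and within prefix 3 and prefix 4 it was 0.39 and 0.53, from 4 and 6 libraries, called in neither. Prefix 5 held only P5 Het 5 and P5 Het 6 (43.1 and 49.7 CPM) and no WT library. Genotype and prefix are therefore partly mixed in the value without the block. At P11 the Het libraries had 36.5, 27.0, 40.9, 32.7 and 33.5 CPM and the WT libraries 42.7, 35.2, 36.1, 36.8 and 38.1 CPM. These overlapped, with a log2 fold change of -0.15 ± 0.09 (adjusted p = 0.606).

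The genotype by age interaction of Cdh23 was -0.64 ± 0.12 and missed the threshold (adjusted p = 0.0823). DESeq2 called it (-0.65, adjusted p = 0.00164), and so did edgeR without P5 Het 1 (-0.69, adjusted p = 0.0349) or without P11 Het 3 (-0.71, adjusted p = 0.0192). From P5 to P11, Cdh23 fell by 0.38 ± 0.09 in Het (adjusted p = 0.000803) and rose by 0.26 ± 0.09 in WT (adjusted p = 0.0131), and the WT call was lost without P11 WT 1 (0.22, adjusted p = 0.0501). With keratinocyte and muscle scores as covariates the Het value was -0.26 (adjusted p = 0.0757), in a fit that cannot fully tell the keratinocyte score from age. The same libraries enter the age and genotype comparisons, so these are views of 1 set of values. At P5 the mean log2 CPM of 10 ameloblast markers was 6.97 to 7.96 in Het and 7.90 to 8.65 in WT, with 8 of 10 negative, a median log2 fold change of -0.36 and 1 called. That gene, Klk4, the protease of maturing enamel, was lower in P5 Het (-0.78 ± 0.16, adjusted p = 0.0284). Of 13 tested muscle markers 11 were positive, with a median of 0.99 and none called (6 at an unadjusted p under 0.05). The muscle score stood apart in 1 library, P5 Het 5, at 0.71. It was -1.77 to -1.36 in the other 5 P5 Het libraries, against -2.11 to -1.23 in P5 WT. The part of ameloblast RNA in the P5 difference of Cdh23 was not tested. As to muscle RNA, the P5 difference of Cdh23 was 0.5 without P5 Het 5 (edgeR adjusted p = 0.0178). Cdh23 was called at P5 in 32 of 34 alternative fits, among them that with keratinocyte and muscle scores as covariates. The 2 other fits were those within a single prefix.

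The Cdh23 start lies on chromosome 10, and its upstream window (chr10:60696441-60696740, minus strand, GRCm38.p6) is shown because Cdh23 was the member called between genotypes of a TGF-beta receptor. It holds 1 Smad box, as GTCTG at -108 in capitals, a motif present in 49.6% of promoters, and 5 CG dinucleotides.
Cdh23: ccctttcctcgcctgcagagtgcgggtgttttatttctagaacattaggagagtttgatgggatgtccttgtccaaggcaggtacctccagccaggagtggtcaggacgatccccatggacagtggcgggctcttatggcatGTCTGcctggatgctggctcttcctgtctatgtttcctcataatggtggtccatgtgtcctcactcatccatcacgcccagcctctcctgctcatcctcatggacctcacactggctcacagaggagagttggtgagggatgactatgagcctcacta

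Cdh17 had 0.655, 0.934 and 1.1 CPM (lowest, median and highest) in P5 Het and 1.21, 1.60 and 2.06 CPM in P5 WT. The groups did not overlap, yet the difference of -0.84 ± 0.21 was not called by edgeR (adjusted p = 0.0990), while DESeq2 called it (-0.85, adjusted p = 0.0145). Ctnnal1 averaged 24.5 ± 2.31 CPM in P5 Het and 29.5 ± 2.05 CPM in P5 WT, with overlap (-0.27 ± 0.08, adjusted p = 0.331). Ctnna2 was 1.06 ± 0.36 higher in P11 Het than in P11 WT without a call (adjusted p = 0.348). Without the 5 libraries with raised keratinocyte or muscle markers the value was -0.05. That fit sets WT 1 to 3, all of prefix 1, against Het 1 and 3 of prefix 1 and Het 4 and 5 of prefix 2. Genotype and prefix are therefore mixed in it. Within prefix 1, Ctnna2 was 18 to 69.1 CPM in Het and 14.7 to 16.6 CPM in WT. Within prefix 2 it was 9.60 to 11.2 CPM in Het and 7.29 to 7.46 CPM in WT. For Cdh1, Cdh2, Cdh3, Cdh11, Ctnna1, Ctnnb1 and Ctnnd1 the genotype log2 fold changes at both ages lay between -0.10 and 0.08, with SEs of 0.05 to 0.14. Of the 6 tested desmosomal cadherins, 5 were negative and 1 positive at P11, with a median of -0.30 and none called. Dsc2 was -0.39 ± 0.21, Dsg3 -0.21 ± 0.17, Dsg2 -0.19 ± 0.09 and Dsc3 0.06 ± 0.07. At P5, 3 were positive and 3 negative, with a median of 0.02.

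**Figure D4:**
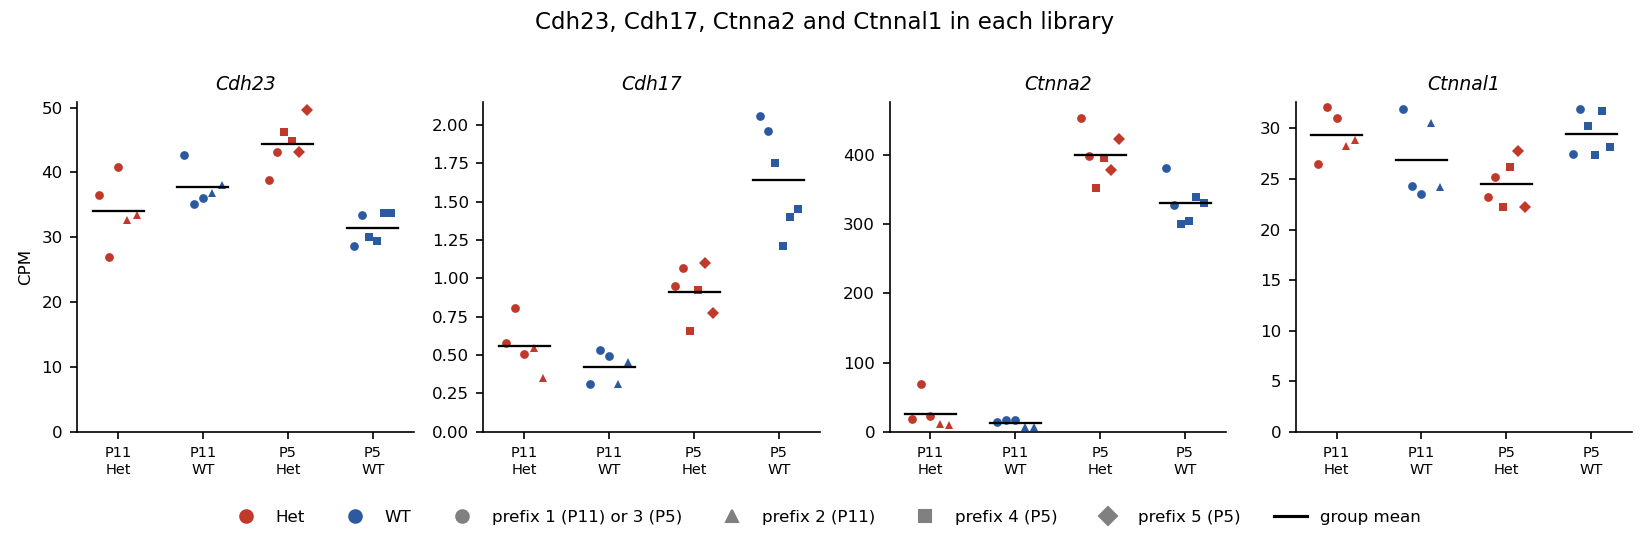
Cdh23, Cdh17, Ctnna2 and Ctnnal1 in each library, as CPM on linear axes from 0, with Het in red, WT in blue, symbols for the prefix and a line at the group mean. At P5 the Het libraries lie above the WT libraries for Cdh23 (38.9 to 49.7 against 28.6 to 33.7 CPM) and below them for Cdh17 (0.655 to 1.1 against 1.21 to 2.06 CPM).

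Within P11, the prefix moved more members than genotype did. Prefix 2 held Het 4, Het 5, WT 4 and WT 5, and with genotype in the model 7 of 33 members were called between prefix 2 and prefix 1, against a background of 5.63% (2.26% higher and 3.37% lower). Dsc2 (0.90 ± 0.10), Dsg3 (0.63 ± 0.10), Cdh13 (0.37 ± 0.11) and Ctnna1 (0.17 ± 0.05) were higher in prefix 2, and Ctnna2 (-1.46 ± 0.26), Ctnnb1 (-0.50 ± 0.06) and Cdh11 (-0.30 ± 0.06) were lower. Both prefix 2 WT libraries are among the 3 with the most oral keratinocyte RNA. Without the 5 libraries with raised keratinocyte or muscle markers 2 members were called, but only Het 4 and Het 5 then remained in prefix 2. Fewer libraries and less keratinocyte RNA cannot be told apart in that fit. Ctnna2, Dsg3 and Dsc2 were also among the members with the largest differences between the ages.

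The oral keratinocyte score, the mean log2 CPM of 15 marker genes, was 0.75, 4.72, 1.38, 0.10 and 0.89 in P11 Het 1 to 5 and -0.33, 0.65, -0.02, 5.68 and 4.09 in P11 WT 1 to 5; at P5 it was -2.18 to -0.71 in Het and -2.35 to -1.63 in WT. Summed over the markers this was 98.6 to 983 CPM in P11 Het and 79.2 to 1650 CPM in P11 WT, against 12.1 to 28.0 CPM in P5 Het and 11.1 to 16.5 CPM in P5 WT, where 2 of the 15 were at 0 in every library. The part of this RNA in the age differences was not tested beyond the values given with and without those libraries. Dsc1, Dsg1a and Dsg1b were highest in the 3 libraries with the highest score. Dsg1a was 118 to 205 CPM there against 30.5 to 71.6 CPM in the other 7, and Dsg1b 23.9 to 43.3 CPM against 11.5 to 20.8 CPM. Dsg2 was 165 to 236 CPM in the 3 and 182 to 235 CPM in the 7, and these ranges overlap. Compared within prefix 2 alone, with 2 libraries per genotype, Het was below WT for Dsc2 (-0.65, adjusted p = 0.00341), Dsg1a (-1.31, adjusted p = 0.00505) and Dsg1b (-1.04, adjusted p = 0.0172). Dsc1, which passed the filter there, was also lower (adjusted p = 0.000499), with 1 count in each Het library and 159 and 72 counts in the WT libraries. Both WT libraries in that comparison have scores above 4 and both Het libraries scores under 1, so genotype and keratinocyte RNA cannot be told apart there. Without the 5 libraries the genotype values at P11 were 0.21 for Dsc2, 0.17 for Dsg1a and -0.04 for Dsg1b, none called. In that fit no WT library of prefix 2 is left, while Het 4 and Het 5 of prefix 2 remain. Genotype and prefix are therefore mixed in these values.

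**Figure D5:**
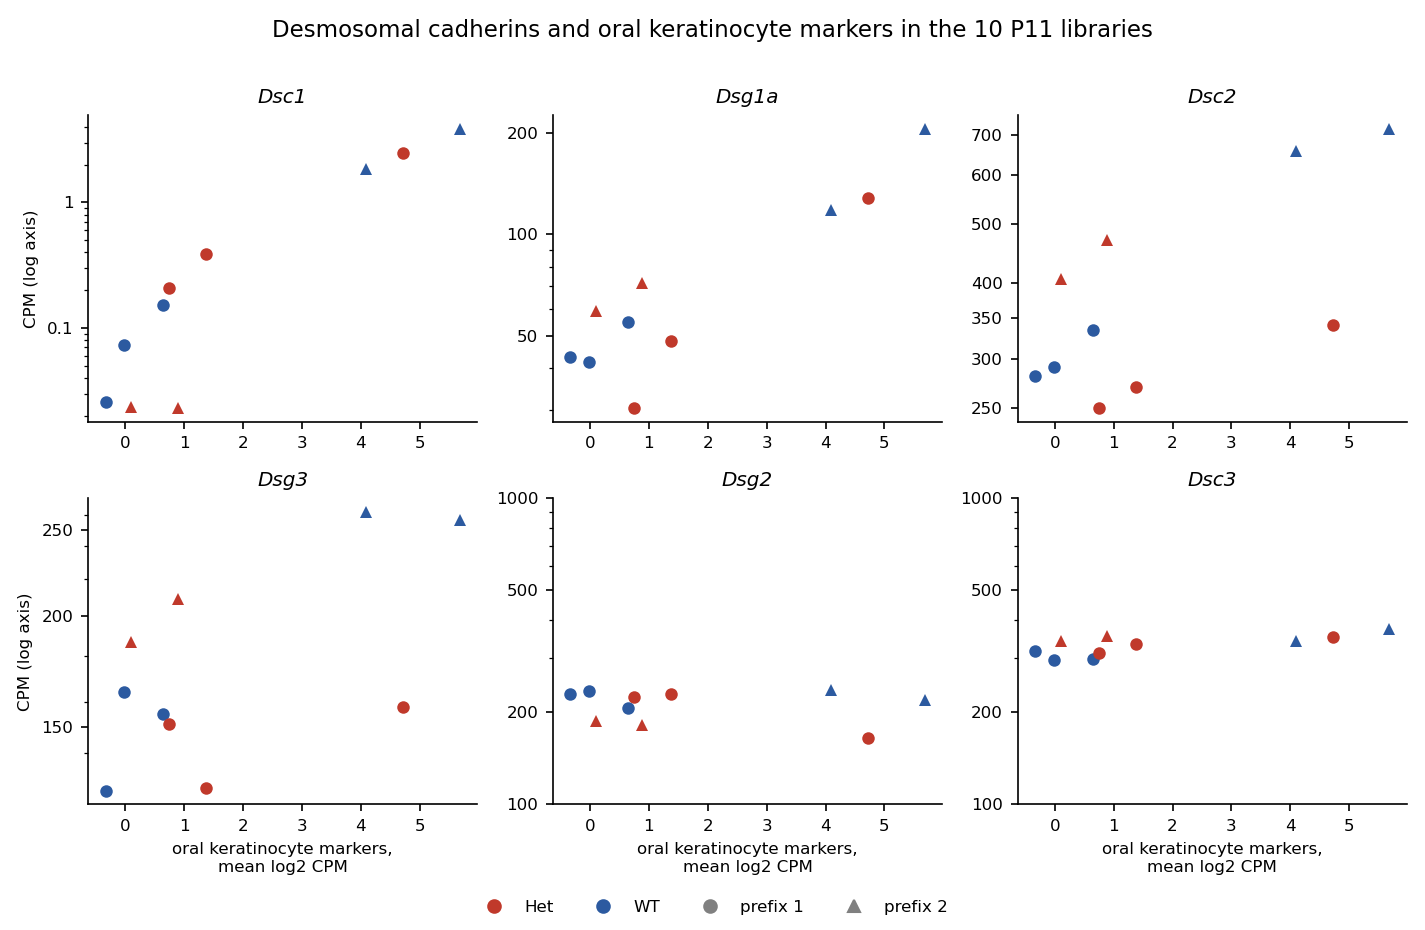
CPM (log axes) of 6 desmosomal cadherins against the mean log2 CPM of 15 oral keratinocyte markers in the 10 P11 libraries, with Het in red, WT in blue, circles for prefix 1 and triangles for prefix 2. Dsc1 and Dsg1a are highest in the 3 libraries with scores of 4.09 to 5.68, whereas Dsg2 stays between 165 and 236 CPM throughout.

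The partners of these proteins were read from lists chosen with earlier results of these data known. Of 10 plaque and cornified partners of desmosomes, 6 rose and none fell in Het (60% called, against 47.8% of all genes), and 7 rose and none fell in WT (70%, against 49.4%), with medians of 0.85 in Het and 1.03 in WT beside -0.01 over all genes in each. Desmoplakin (Dsp) rose by 1.38 ± 0.11 in Het and 1.48 ± 0.11 in WT, and plakoglobin (Jup) by 1.37 ± 0.16 in Het and 1.40 ± 0.16 in WT. The plakophilin Pkp1 rose by 1.15 ± 0.11 in Het and 1.18 ± 0.11 in WT, and Pkp2 by 2.16 ± 0.32 in Het and 1.97 ± 0.33 in WT. Jup (0.62 ± 0.11), Dsp (0.39 ± 0.09) and Pkp1 (0.35 ± 0.09) were also higher in prefix 2 than in prefix 1 at P11.

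Adherens junction partners moved both ways: 7 rose and 3 fell of 19 tested in Het (52.6% called, near the 47.8% of all genes), and 9 rose and 5 fell in WT (73.7%, against 49.4%). Nectin3, an immunoglobulin-like adhesion protein, rose by 1.29 ± 0.11 in Het and 1.14 ± 0.11 in WT, while Nectin4 fell by 1.03 ± 0.10 in Het and by 1.09 ± 0.10 in WT. The actin-binding Actn1 rose by 0.79 ± 0.08 in Het and 0.74 ± 0.08 in WT, and vinculin (Vcl) by 0.64 ± 0.08 in Het and 0.74 ± 0.08 in WT. Of 27 tested genes of the wider cadherin superfamily, 12 rose and 11 fell in Het (85.2%, against 47.8%), and 10 rose and 11 fell in WT (77.8%, against 49.4%). They included the calsyntenin Clstn2 (2.56 ± 0.15 in Het and 2.55 ± 0.15 in WT), the planar polarity cadherins Dchs1 (0.92 ± 0.05 in Het and 1.01 ± 0.05 in WT) and Celsr1 (-1.87 ± 0.17 in Het and -1.68 ± 0.17 in WT), and Fat2 (-1.62 ± 0.10 in Het and -1.35 ± 0.10 in WT).

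Of 18 factors known to switch cadherin genes or their splicing, 10 were called higher and 2 lower in Het, against 24.4% higher and 23.4% lower over all genes. In WT 11 were higher and 1 lower, against 24.8% higher and 24.7% lower. They did not share a direction of action: Ovol2, which keeps epithelial identity, rose by 3.48 ± 0.21 in Het and 3.56 ± 0.21 in WT, and Twist1, which represses Cdh1, by 1.72 ± 0.16 in each. Between genotypes, Snai3, a Snail relative, was lower in P5 Het than in P5 WT (-0.97 ± 0.20, adjusted p = 0.0268), the only gene called in these partner lists at P5. Among 14 genes that shed or recycle cadherins, 3 rose and 5 fell in Het (57.1%, against 47.8%) and 6 rose and 5 fell in WT (78.6%, against 49.4%). The sheddase Adam10, which cuts E- and N-cadherin, fell by 1.15 ± 0.06 in Het and by 1.13 ± 0.06 in WT. The endocytic adaptor Numb fell by 1.80 ± 0.08 in Het and by 1.90 ± 0.08 in WT, while Adam9 rose by 1.01 ± 0.06 in Het and 1.04 ± 0.06 in WT.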

How the data were processed

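Bulk RNA sequencing of 22 molar libraries was analysed. Per the labels' protocols, unstranded Nextera XT libraries were read as paired ends of 100 bases; they carry no molecular identifiers, so counts are not independent molecules. STAR 2.7.3a and GRCm38 are listed, as are limma, edgeR and DESeq2, per the submitters' processing notes. Which tool counted reads, and on which annotation, is not given in the sources used here. Raw counts deposited by the authors are whole numbers for 55439 features, of which 18 that are not mouse genes (0.000109% to 0.000457% of a library) were left out. The deposited normalised signal, counts divided by 1 number per library, gave the gene symbols and was otherwise not used.

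Groups came from sample titles. Counts were tested with the two-sided quasi-likelihood test of edgeR 4.0.16 (R 4.3.3), with TMM factors, filterByExpr (minimum count 10, minimum total 15), 4 age-by-genotype groups and 18 residual degrees of freedom. P-values were adjusted by Benjamini and Hochberg's method over 21510 genes, with calls under 0.05; the script was tested on simulated data. The SE was taken as the size of the log2 fold change over the root of F. CPM are TMM-scaled; CPM per kb divide by exon length in GENCODE M21 (39 of 39 genes matched). Marker scores use a prior count of 2. Replicate libraries differed by 6.58 to 93.9 in chi-square per degree of freedom, so none was merged. The alternatives were DESeq2 1.42.0, limma 3.58.1 (voom), DESeq2 size factors, other filters, fits of the compared groups alone, omitted libraries, marker covariates and blocks; within-prefix fits were added after the data were seen.

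The genes and lists were chosen with earlier results of these data known. Values in every library or group are given for members called in a genotype comparison, the 4 called members of largest change per direction and age comparison, and 12 canonical members; of each partner list up to 4 called genes per comparison, by p. Ctnnal1, Dsc1, Klk4 and Enam were chosen after their values were seen.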

Additional observations from a re-analysis of the deposited data

Results flagged for a closer look

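In 10 of 132 groups of libraries (33 tested genes in 4 groups), or 7.58%, the highest or lowest library stood apart from the others by a Dixon test at 95%; chance flags about 1 in 20 groups. Among P11 Het libraries, Ctnna2 was 69.1 CPM in Het 2 against 9.60 to 22.5 CPM in the others. Cdh12 was 0.511 CPM in Het 1 against 0 to 0.0961 CPM.

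Among P11 WT libraries, Cdh2 was 82.5 CPM in WT 1 against 67.5 to 71.1 CPM. Cdh22 was 1.02 CPM in WT 2 against 0.457 to 0.590 CPM, and Cdh12 was 0.197 CPM in WT 3 against 0.0515 to 0.0764 CPM. In WT 5, Cdh24 was 0.127 CPM against 0.773 to 1.01 CPM and Cdh5 was 34.4 CPM against 32.3 to 32.7 CPM. At P5, Ctnnd1 was 25.4 CPM in Het 2 against 22.2 to 23.4 CPM. In P5 WT 1, Cdh1 was 95.7 CPM against 84.6 to 88.0 CPM and Cdh26 was 0.390 CPM against 0.102 to 0.197 CPM.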

How the results depend on the processing

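With single libraries left out, 20 to 26 members were called by age in Het, 24 to 26 in WT, 1 between genotypes at P5, 0 at P11 and in the mean of both ages, 0 to 1 in the interaction and 5 to 9 between prefixes. The 1 call in the interaction was Cdh23. DESeq2 called 2 members at P5, Cdh23 and Cdh17, and 1 in the interaction. Within prefix 3 or within prefix 4, 0 members were called at P5, and within prefix 2, 4 were called at P11, all lower in Het (Dsc1, Dsc2, Dsg1a and Dsg1b, of which Dsc1 passed the filter on low counts only there). Without the 5 libraries with raised keratinocyte or muscle markers, 2 members were called between prefixes, with only Het 4 and Het 5 left in prefix 2. By age, 22 were called in Het and 23 in WT in that setting. With both marker scores as covariates these age counts were 18 in Het and 20 in WT, and Dsg1a in Het was -0.07 (edgeR adjusted p = 0.852). The keratinocyte score was -0.33 to 5.68 in P11 libraries and -2.35 to -0.71 in P5 libraries. Because it separates the ages, that fit cannot fully tell the score from age. The causes were not tested. Shares of all genes called were not computed for the alternatives in this section. Its counts of members therefore stand without a background. Replicate numbers did not pair the libraries (correlations of -0.13 to 0.21), and with them as a replicate block 25 members were called by age in Het, 24 in WT, 1 at P5 and 0 at P11. The prefix block could not be fitted to the age comparisons. Low counts limit Cdh4, Cdh10, Cdh12, Cdh15, Cdh17, Cdh20, Cdh22, Cdh24, Cdh26, Ctnna3 and the 6 untested members.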
